A study of Zea mays with 4 samples.

Results

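Histone and linker histone genes of the maize kernel were followed on Affymetrix maize arrays in bt2 mutant and wild-type kernels. They were chosen by name, as every gene whose array symbol, RefSeq symbol or RefSeq synonym is a histone symbol, with histone-modifying enzymes left out. The choice rule also limits the set to the genes with the highest mean level, but too few genes matched for that limit to apply. The group itself was taken up with earlier results of these data known. Of 1108 genes named on the array, 4 matched, with 9 of the 17620 maize probe sets. These are the linker histone genes hon101 (LOC541973), his1a (LOC541964, also named hon102) and his1 (LOC542385, also named H1), and the core histone gene his2b5 (LOC542301). In all, 9 RefSeq genes match the rule, and the other 5, among them his2a1, his2b2 and hon110, have no named probe set and were not analysed here. The platform annotation names no gene for 91.8% of the maize probe sets, so other histone transcripts may be measured on the array without a name.

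The study has 4 samples, 1 array each. The mutant samples, mutant 1 and mutant 2, carry the bt2-H2328 allele of Brittle2, and the controls are wild type 1 and wild type 2. Both groups were untreated kernels taken 35 days after pollination from plants grown in a greenhouse, with 20 µg of total RNA for each sample except mutant 2, which had 17 µg. The labels give no inbred background and do not say whether the samples of a group came from separate plants, so p-values here weigh differences against a spread between arrays that may be only technical.

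The product of Bt2 is a subunit of ADP-glucose pyrophosphorylase, which supplies starch synthesis with its substrate. In the nucleus, DNA is wound around octamers of the core histones H2A, H2B, H3 and H4, and linker histones of the H1 family sit where the DNA enters and leaves that particle and help to compact the chromatin. Most core histone transcripts are made while DNA is replicated, and in plants, unlike animals, they carry a poly-A tail. Maize endosperm cells first divide and then copy their DNA repeatedly without dividing.

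Levels are log2 GCRMA values per probe set, which on these arrays ran from 1.31 to 15.44. Each probe set has its own brightness, so levels are compared between arrays and not between genes. Probe sets were tested where at least 2 of the 4 arrays reached a log2 value of 4. By this filter 3 of the 9 histone probe sets were kept, 1 each for hon101, his1a and his1. The other 5 probe sets of his1 and the single one of his2b5 were not kept. The mutant arrays were tested against the wild-type arrays with limma over all 10458 kept probe sets, with Benjamini-Hochberg adjustment over all of them and a threshold of 0.05.

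The 3 measured linker histone genes did not change alike. his1a was 3.41-fold lower in the mutant kernels, and hon101 was 1.38-fold higher on the deposited scale but lower on a scale set by added control RNAs. his1 was lower too, but by only 1 of its 6 probe sets, and the other 5, all under the filter value, gave no such difference. That 1 set has probes that also match other sequences, and the wild-type arrays alone would have kept it. Its mutant values lay near the filter value, so its fold is not well set either. The log2 difference was -3.28, -2.46 with 16 added on the linear scale, and -3.87 to -2.68 with 1 array left out. The arrays differed widely in general, since 43.2% of the kept probe sets passed the test, with 21.0% higher and 22.1% lower in the mutant. That 3 linker histone probe sets passed is read against that share. In bulk kernels, fewer cells of a type and less RNA per cell cannot be told apart.

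hon101 read 13.21 in mutant 1, 13.30 in mutant 2 and 12.79 in both wild types. Both mutants lay above both wild types, with a gap of 0.42 between the groups against 0.09 between the mutants. The log2 difference was 0.47 (SE 0.09, n = 2 per group, 95% interval 0.23 to 0.70), with a limma adjusted p of 0.0182. A difference at least this high was found in 26.3% of the kept probe sets. The sign depends on the scale of the arrays: centred on the poly-A control RNAs, hon101 differed by -0.77, with a limma adjusted p of 0.00373. That p-value treats the error of the shift as separate for each probe set, though all share it. It therefore does not measure the uncertainty of the scale.

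his1a read 10.71 in mutant 1 and 10.95 in mutant 2, against 12.51 in wild type 1 and 12.69 in wild type 2. Its replicates lay within 0.24 of each other in the mutant and 0.18 in the wild type, and the groups were 1.56 apart at their nearest. The log2 difference was -1.77 (SE 0.13, n = 2 per group, 95% interval -2.13 to -1.41), with a limma adjusted p of 0.00683. Only 5.11% of the kept probe sets had a difference as low as this. The suffix of the probe set, a, marks by Affymetrix naming a set whose probes match several transcripts of the same gene.

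his1 is measured above the filter by 1 of its 6 probe sets, which read 3.58 in mutant 1 and 4.77 in mutant 2, and 7.29 and 7.61 in the wild types. Both mutants were lower than both wild types by at least 2.52. The mutants were also 1.19 apart, a spread reached by 2.42% of the kept probe sets, while the wild types lay 0.32 apart. 1 mutant lay under the filter value of 4 and the wild-type arrays alone would have kept this probe set, so its being tested is tied to their higher level. With that limit, the fit gave a log2 difference of -3.28 (SE 0.44, n = 2 per group, 95% interval -4.46 to -2.09) and a limma adjusted p of 0.0103.

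The other 5 probe sets of his1 gave no such difference. They read between 1.61 and 2.89 on every array, under the filter value. 3 of them were designed on the same sequence cluster as the informative set but in the opposite orientation, which the letter A in place of S marks in Affymetrix naming. The sets of hon101, his1a and his2b5 also carry an A, so the letter alone does not tell which set reads a transcript. A further set with the letter S, designed on another sequence cluster of his1, gave 2.88 and 2.89 for the mutants and 2.85 for both wild types. The his1 probe sets therefore disagree in level, and the fall rests on 1 of 6. The other 5 read too low to show a fall, so their values do not test it. The suffix of the informative set, x, marks by Affymetrix naming a set with probes that also match other sequences. Transcripts of other genes may therefore be read with it.

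**Figure D1:**
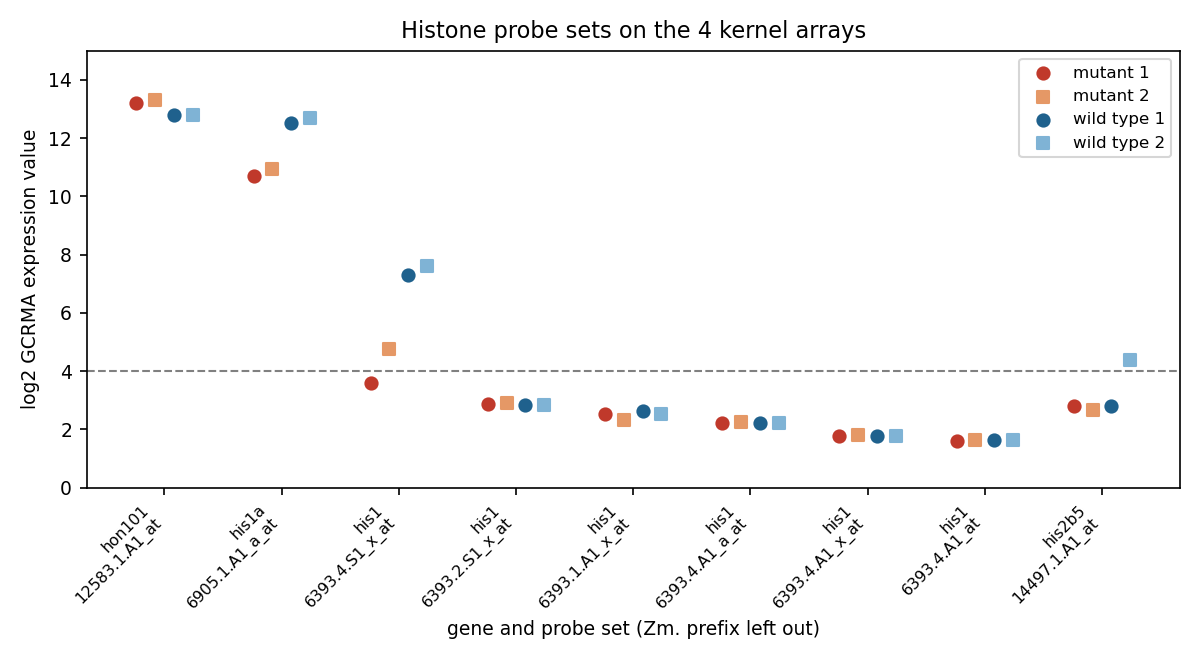
Log2 GCRMA expression values (vertical axis) of the 9 histone probe sets (horizontal axis) on the 4 arrays, 1 point per array, with the filter value of 4 as a dashed line. hon101 is slightly higher in the mutants, his1a and the first his1 probe set are lower, and the other 5 his1 sets lie under 3 on every array.

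his2b5, the only core histone gene named on the array, encodes a histone H2B. It read 2.79 in mutant 1, 2.65 in mutant 2 and 2.80 in wild type 1, all under the filter value, and 4.37 in wild type 2. The wild types were 1.57 apart, further than any of the other histone probe sets within a group, and the group difference of -0.87 rests on wild type 2. When no filter was used, its limma adjusted p was 0.335. A level for core histone transcripts in these kernels therefore cannot be given from named probe sets.

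For the comparison of core with linker histones, the his2b5 value was set against the mean of hon101, his1a and his1 on each array. Since his2b5 was under the filter value on 3 arrays and his1 near it in the mutants, this is a value and not a measured difference of core histones. It was 0.66 higher in the mutant on the log2 scale, the groups overlapped, and an exact two-sided permutation test over the arrays gave p = 0.667. With 2 arrays per group such a test cannot go below 0.333. Without wild type 1 the difference was -0.04 and so turned its sign.

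The linker histone genes were also compared with each other within each array, where a shift of a whole array cancels but other normalization may not. The absolute size of such a difference has no meaning, because the probe sets differ in brightness, but its change between groups does. On the mutant arrays hon101 exceeded his1a by 2.50 and 2.35, and on the wild-type arrays by 0.28 and 0.10. Relative to his1a, hon101 was thus 2.24 higher in log2, or 4.71-fold, in the mutant kernels. hon101 exceeded his1 by 9.63 and 8.53 in the mutants and by 5.50 and 5.18 in the wild types, a change of 3.74 whose size is as uncertain as the mutant level of his1. his1a exceeded his1 by 7.13 and 6.18 in the mutants and by 5.22 and 5.08 in the wild types, a change of 1.51 with the same limit. The groups did not overlap in any of the 3 pairs compared. They did not overlap in 78.5% of single kept probe sets either, and no such share was counted over pairs. The 3 pairs come from the same 3 genes and are not independent. The exact permutation p was 0.333 for each, the smallest possible, which no adjustment over the pairs can lower. The pair of hon101 and his1a, both far above the filter value on every array, is the one free of the limit set by his1. A shift of a whole array, such as that of the poly-A scale, leaves these values as they are.

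**Figure D2:**
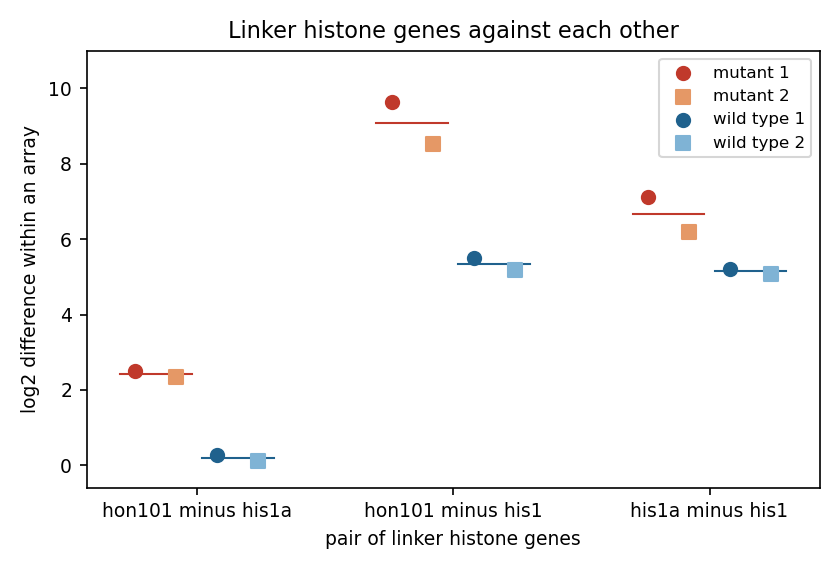
Log2 difference between pairs of linker histone genes within an array (vertical axis) for the 3 pairs (horizontal axis), 1 point per array, with lines at the group means. Both mutants lie above both wild types in each pair, by 2.24, 3.74 and 1.51 between group means.

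The deposited values are relative to the scale of the arrays. The 36 poly-A control probe sets, which read bacterial RNAs of the kind added before labelling, had a median difference of 1.20, with the mutant higher, and a scale set by them shifts all differences by -1.23. On that scale his1 differed by -4.51 and his1a by -3.00, and all 3 linker histone genes were lower in the mutant, as were 78.7% of all kept probe sets by the same call, while 2.91% were higher. These calls do not measure the uncertainty of the shift, which all probe sets share. The part of these controls in the linker histone differences was not tested. bt2 itself, which checks the labels, was near 10.1 on both mutant arrays and between 12.64 and 12.67 on the wild-type arrays.

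Markers of kernel tissues differed between the groups as well. All 5 endosperm markers found, zp27, fl2, o2, pbf1 and sh1, were above 4 on every array, and their summed level was 14.30 and 14.34 in the mutants against 14.99 and 15.04 in the wild types. All 5 were lower in the mutant, but by unlike amounts. zp27 differed by -0.33 and sh1 by -0.32, against -1.05 for o2, -2.70 for pbf1 and -3.68 for fl2. A haemoglobin gene that shares the synonym of glb1 was left out. All 4 embryo markers found, among them the globulin gene glb1 and the oleosin gene ole1, were above 4 on every array. Their summed level was 16.33 and 16.42 in the mutants against 16.04 and 16.20 in the wild types. Their single differences ran from 0.145 for glb2 to 0.465 for vp1. The poly-A scale shifts all differences by -1.23, so on it all 4 are lower in the mutant. The 5 markers of the basal endosperm transfer layer were all lower in the mutant, with a summed level of 6.17 and 6.74 against 9.03 and 9.80, but only betl4 was at 4 or more on every array. betl2 was under 4 on every array, and betl1, betl3 and meg2 were under 4 on both mutant arrays. Aleurone markers summed to 10.83 and 10.85 in the mutants against 10.86 and 10.91 in the wild types. That sum is over members that went opposite ways, with dek1 at 1.64, sal1 at 0.35 and nkd1 at -1.02. On the poly-A scale sal1 is lower in the mutant too. The 3 genes listed for pericarp, zag2, bde1 and p1, summed to 8.61 and 9.05 in the mutants against 9.92 and 9.93 in the wild types. That sum rests on bde1 and zag2, at -1.07 and -1.46, as p1 was under 4 on every array. Whether bde1 and zag2 mark pericarp in these kernels, or dek1, sal1 and nkd1 mark aleurone, was not tested. The part of these tissue markers in the linker histone differences was not tested.

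By the distance between their centred log2 values on the 4 arrays, the 3 named genes nearest to each linker histone gene were taken out of 690. For hon101 they were phb1, a prohibitin, at a distance of 0.06, tif1, a translation initiation factor, at 0.07, and vp1, a transcription factor of seed maturation, at 0.08, with differences of 0.43, 0.48 and 0.47. For his1a they were cesa2, a cellulose synthase, at 0.07, mpk6, a mitogen-activated protein kinase, at 0.08, and CNX, the chaperone calnexin, at 0.09, with differences of -1.72, -1.79 and -1.69. For his1 the nearest genes were much further away, with EXPA5, an expansin, at 0.86, z1C2, the alpha zein gene also named fl2, at 0.88, and vdac1b, a mitochondrial porin, at 0.93. The distances rest on 4 arrays and describe likeness only.

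Genes that act on histones or assemble nucleosomes were counted beside the histones, 1 probe set per gene. Among all 781 tested genes 20.9% rose and 29.4% fell, and the median difference was -0.18. Of 14 histone modifying enzyme genes tested, 2 rose and 6 fell, the other 6 did not pass, and the median was -0.58. hdt102 and hdt103, deacetylases of the plant HD2 family, passed at log2 differences of -1.41 and -0.70, and the acetyltransferase gene hac106 fell by 1.16. hda101, an RPD3-type deacetylase that acts on histone tails, rose by 1.16 on the deposited scale and read -0.07 on the poly-A scale. The second rise, hag101, a GCN5-type acetyltransferase, was 0.84, and -0.39 on the poly-A scale. It was named after its value was seen.

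Of 23 genes for nucleosome assembly and chromatin proteins, 2 rose and 10 fell, the other 11 did not pass, and the median was -0.65. nfd101, of a family of HMG-box chromatin proteins, had mutant values of 4.95 and 4.78 against wild-type values of 8.19 and 9.02. Its log2 difference was -3.74, beside -3.28 for his1. Both genes have mutant values near the filter value, so neither size is well set. The other nfd genes tested, nfd102, nfd104 and nfd110, did not pass, at -0.32, -0.07 and -0.05. The nucleosome assembly genes nfa104 and nfa101, whose products carry histones to DNA, differed by -1.26 and -1.01, and both passed. mez3, a Polycomb-group gene of the Enhancer of zeste type, rose by 1.13, and was -0.10 on the poly-A scale. The other rise, smh3, encodes a single Myb histone, a protein with a domain like that of linker histones. It was 0.87 higher, was -0.37 on the poly-A scale, and was named after its value was seen. The other single Myb histone genes tested did not rise with it. smh4 passed at -0.81, and smh6 at -0.65 and another gene named Smh6 at 0.035 did not pass. These too were named after their values were seen.

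Among 10 genes for DNA methylation and methyl-CpG binding, 4 rose and 4 fell, the other 2 did not pass, and the median was -0.53. met4 rose by 1.41, and the methyl-CpG-binding genes mbd115 and mbd105 rose by 0.90 and 0.62, while mbd106 fell by 0.65. On the poly-A scale met4 read 0.18, mbd115 -0.33 and mbd105 -0.62. Most core histone transcripts are known to follow DNA replication, so replication and cell cycle genes were set beside them. Of 18 such genes on the array 8 were tested, of which 4 fell, 0 rose by limma, also at an unadjusted p under 0.05, and 4 did not pass. The median was -0.64. pcna2, the clamp that holds DNA polymerase on DNA, had mutant values of 4.25 and 3.15 against wild-type values of 5.77 and 6.94. Its log2 difference was -2.66, with 1 mutant under the filter value, so that it too would have been kept by the wild-type arrays alone. The D-type cyclin gene cycD2 fell by 1.26, the cyclin-dependent kinase gene cdc2 fell by 1.20 and orc3, of the origin recognition complex, fell by 1.03. On the poly-A scale 0 genes of these lists rose by the same limma test, also 0 at an unadjusted p under 0.05, and 12 of 14 histone modifying enzyme genes, 21 of 23 chromatin genes, 8 of 10 DNA methylation genes and 8 of 8 replication genes fell. Of all 781 tested genes, 33 rose and 623 fell on that scale, where the calls do not measure the uncertainty of the shared shift. The list medians there were -1.81, -1.88, -1.76 and -1.87, against -1.41 over all tested genes.

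**Figure D3:**
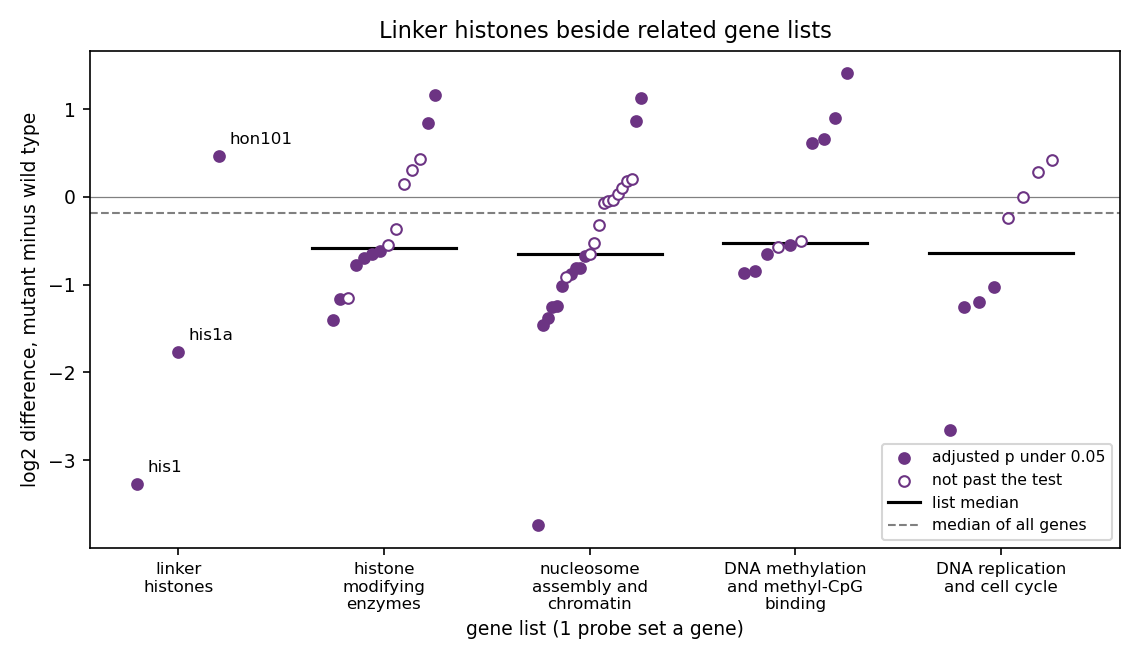
Log2 difference of mutant minus wild type (vertical axis) for the 3 linker histone genes and for the genes of 4 related lists (horizontal axis), 1 point per gene, filled where the limma adjusted p was under 0.05, with list medians as lines and the median of all tested genes, -0.18, dashed. The medians of the 4 lists lie between -0.65 and -0.53, his1 and nfd101 are the lowest of their columns, and hon101 is above 0 on the deposited scale.

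The directions of his1 and his1a were the same in every processing tried, while their calls needed all 4 arrays in most cases. Leaving out each array in turn gave differences of -3.87 to -2.68 for his1, -1.89 to -1.65 for his1a and 0.42 to 0.51 for hon101. The limma adjusted p then lay between 0.0697 and 0.105 for his1, between 0.0491 and 0.0805 for his1a and between 0.0746 and 0.129 for hon101, so that only his1a passed, and only without wild type 1. Over all kept probe sets, the same fits called 0 without mutant 1, mutant 2 or wild type 2, where 4523, 4617 and 3633 had an unadjusted p under 0.05, and 1195 without wild type 1.

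**Figure D4:**
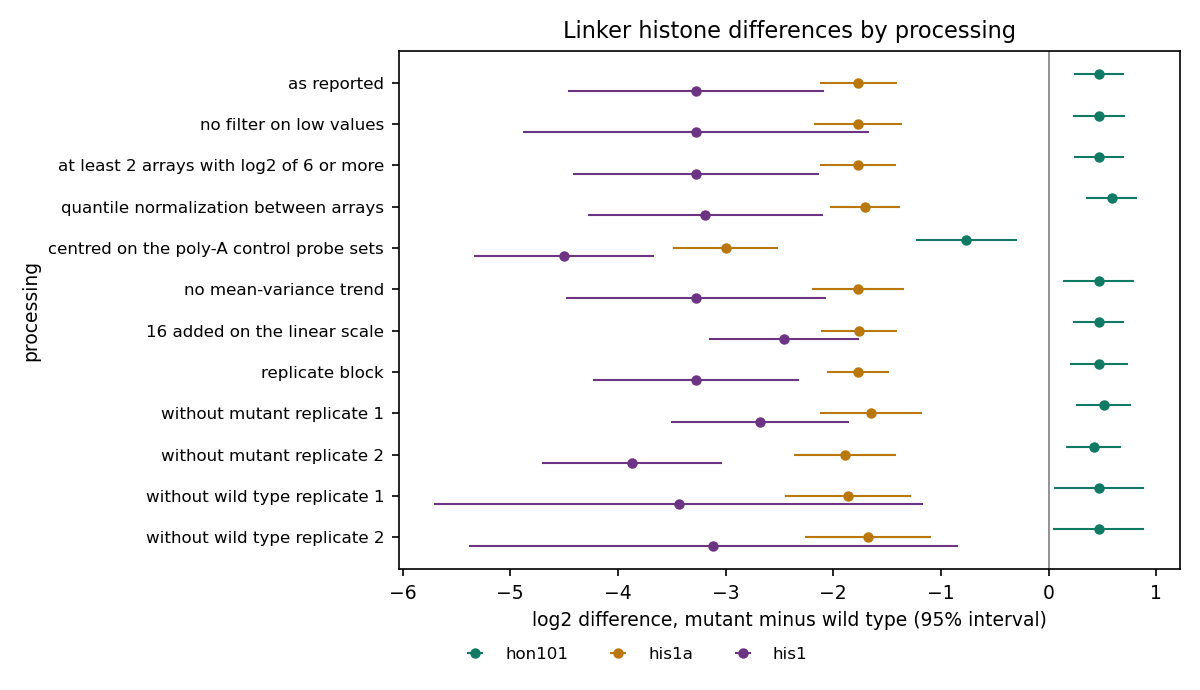
Log2 difference of mutant minus wild type with its 95% interval (horizontal axis) for hon101, his1a and his1 under each processing (vertical axis). his1a stays between -3.00 and -1.65 and his1 between -4.51 and -2.46, and hon101 is above 0 except when the arrays are centred on the poly-A controls, at -0.77.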

How the data were processed

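The deposited values are log2 values, 1 for each probe set, and the submitters' processing notes name GCRMA, which corrects background, normalizes and summarises probes. The log base was read from the values. Neither the GCRMA version nor a joint normalization of the arrays is given in the sources used here. Of 17734 probe sets, 113 array controls and 1 without values were left out. Names came from the platform annotation, updated through Entrez identifiers with RefSeq genes of Zm-B73-REFERENCE-NAM-5.0, which matched 1060 of 1108 genes. No coordinates are given, as the files name no genome build. Groups were tested with lmFit and eBayes (trend on, two-sided) of limma 3.58.1 under R 4.3.3. The fit was also run on simulated data in which few probe sets changed. These data differ much more widely, so that run does not measure false calls here. Where a gene had several probe sets, the brightest on average stood for it. All histone probe sets are described, and up to 4 genes per related list by smallest p and the 3 nearest patterns are named. Kinesins, a cyclotide and chloroplast splicing factors caught by the list patterns were left out by name. The members and lists were chosen with earlier results of these data known. Alternatives changed the filter, normalization, scaling to poly-A controls, variance model, pseudocount, replicate block and arrays used. The number of arrays limits the precision. Figures were drawn with matplotlib 3.10.9.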

Additional observations from a re-analysis of the deposited data

Results flagged for a closer look

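The poly-A control probe sets stand outside the maize comparison and differed between the groups. Their median was 7.46 and 7.18 on the mutant arrays and 6.15 and 6.02 on the wild-type arrays. The median difference was 1.20, higher in the mutant in 36 of 36 probe sets, which read only a few added RNAs and are not independent. hon101 is the linker histone gene whose direction depends on whether this difference is used as a scale.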

How the results depend on the processing

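Under the 7 other settings that keep all arrays, his1 and his1a kept their direction and passed, with differences of -4.51 to -2.46 and -3.00 to -1.70. hon101 passed in all 7, at 0.46 to 0.59 in 6 of them and at -0.77, the other direction, when centred on the poly-A controls. That scaling raised the calls over all kept probe sets from 4514 to 8536, of which 304 were higher and 8232 lower. The calls on that scale do not measure the uncertainty of the shift, which all probe sets share. Without one array, 0 to 1 histone probe sets and 0 to 1195 of all kept probe sets passed, with differences of -3.87 to -2.68 for his1, -1.89 to -1.65 for his1a and 0.42 to 0.51 for hon101; these fits have fewer samples. The core minus linker difference of 0.66 ranged from -0.04 without wild type 1 to 1.36 without wild type 2, and was 0.89 with 16 added on the linear scale. Without a filter 4 of 9 histone probe sets passed, beside 5262 of all 17620 maize probe sets. The fourth was a his1 set near 2.2 on every array with a difference of 0.03. With the replicate number as a block, the 3 linker histone calls held, with limma adjusted p of 0.0293, 0.0293 and 0.0434 for his1, his1a and hon101, and 3444 probe sets passed over all. Deviations of samples with the same number correlated at 0.02, so the numbers were not taken to pair the samples. Probe sets under a log2 value of 4 give no level here, which limits his2b5 and 5 of the his1 sets.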
